A study of Gloeophyllum trabeum with 9 samples.

Results

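The 54 gene models described here were abundant in Gloeophyllum trabeum on every carbon source tested and had similar mean levels on all 3. They were chosen from 11846 gene models by their measured values: the mean of the 3 libraries had to be at least 200 TPM on Japanese cedar, on cellulose and on glucose, and the largest of these 3 means had to be under 2 times the smallest. TPM is a transcript abundance corrected for transcript length, so levels can be set side by side between genes. Of the 137 gene models with at least 200 TPM on all 3 carbon sources, 3 belong to the genes that the rule left out, namely Glotr_134131, Glotr_50888 and 120 gene models that the study lists in its own tables. Of the remaining 134 gene models, 54 (40.3%) were steady by this rule and 80 were not. No gene that was left out would have met the rule. Because the group means chose the members, their levels and ratios between carbon sources are given as a description, without a test.

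G. trabeum is a brown rot fungus, a basidiomycete that removes cellulose and hemicellulose from conifer wood. RNA came from mycelium of strain NBRC6430, in cultures given nanofibrillated Japanese cedar flour for 5 days, nanofibrillated microcrystalline cellulose for 5 days or glucose for 3 days as the sole carbon source, with 3 biological replicates and 1 library for each. Carbon source and culture time therefore cannot be told apart in any comparison with glucose. The deposited values are TPM that were rescaled between the libraries. Their sum ran from 678148 to 1680448 TPM in a library, and Glotr_134131 and Glotr_50888 together held 19.0% to 51.9% of it. The study gives the reads of each library, and the share of them that was pseudoaligned was lowest in the cellulose libraries. Read counts of single gene models were not given with the values. The depth behind a single value is therefore unknown, and the spread between 3 libraries is the measure of error.

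Genes used as steady references in other fungi are commonly parts of the machinery that every growing cell runs. Ribosomal proteins build the cytosolic and mitochondrial ribosomes, histones package DNA, the respiratory complexes and the proton pump of the vacuole handle energy and acidity, and iron-sulfur assembly supplies cofactors to respiration. Whether transcripts of these systems sit at 1 level when the carbon source changes is what the comparison of the 3 group means describes.

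A name was held for 1734 of the gene models, and 18 of the 54 members were among them. Of these 18, 14 carried a functional name and 4 were hypothetical proteins, while the other 36 members are given by their IDs only. The mean over the 3 group means ran from 219.5 TPM for Glotr_130843 to 1581 TPM for Glotr_115408, with a median of 334 TPM. In 43 members it was under 500 TPM, and 44 gene models of the series had a higher mean than Glotr_115408. Only Glotr_115408 and Glotr_126673 had a mean of at least 1000 TPM on all 3 carbon sources. No member was at 0 in any library.

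**Figure D1:**
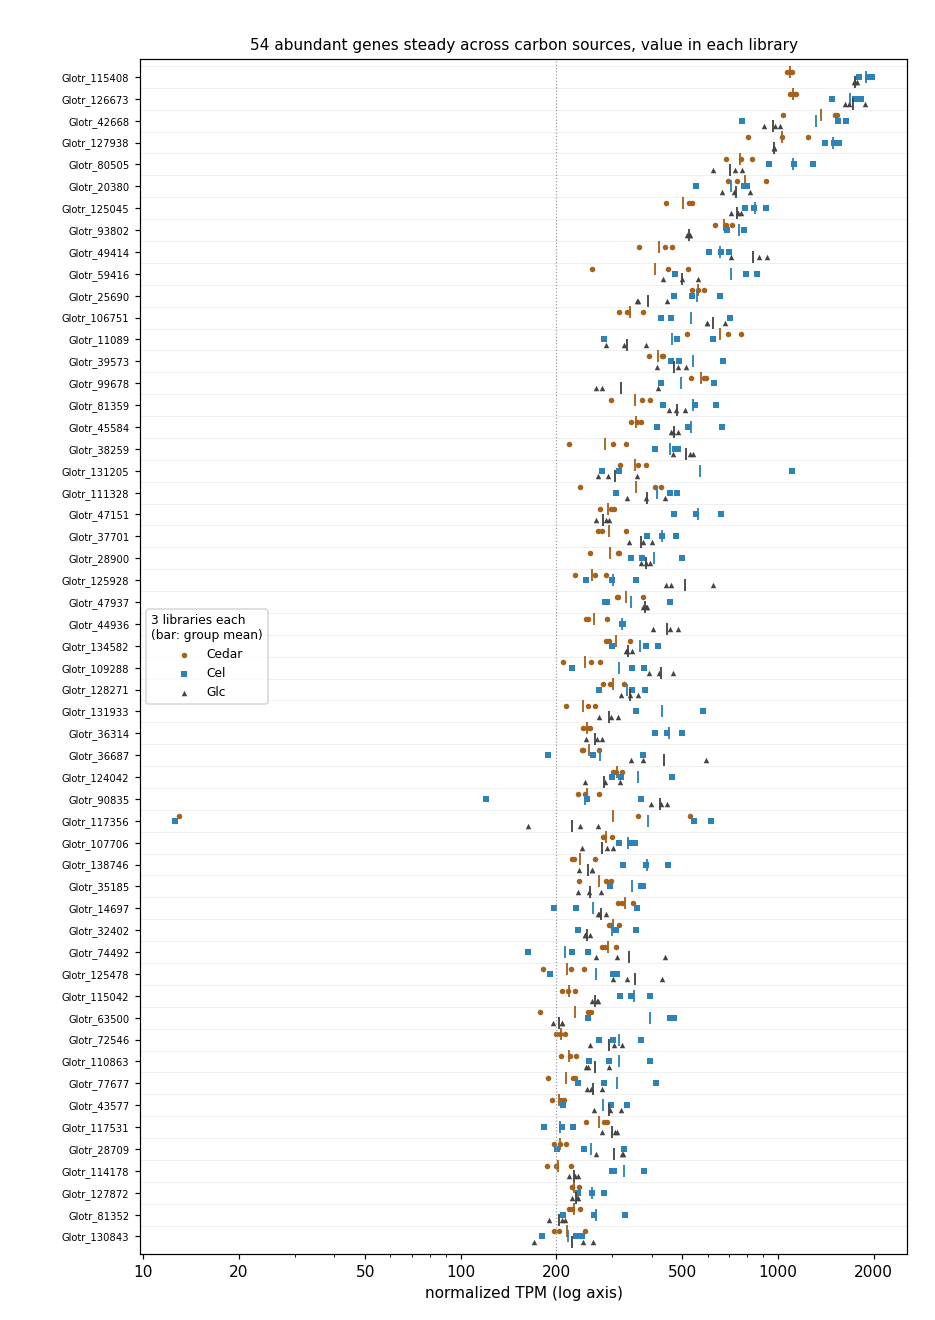
Normalized TPM (log axis) of the 54 members in each of the 3 cedar, 3 cellulose and 3 glucose libraries, ordered by the mean of the group means, with a bar at each group mean. The means lie within a factor of 2 by selection, while single libraries of Glotr_117356 reach down to 12.6 TPM.

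Glotr_115408, the most abundant member, has no name in the table used here. It had 1093, 1107 and 1069 TPM on cedar, 1915, 1979.7 and 1806 TPM on cellulose and 1773, 1739 and 1748 TPM on glucose. Its replicates differed little, and all 3 cedar libraries lay below all 6 others. Glotr_126673, also without a name, had 1136, 1132 and 1088 TPM on cedar, 1479, 1744 and 1831 TPM on cellulose and 1877, 1674 and 1629.8 TPM on glucose, again with the cedar libraries lowest. Among the other unnamed members of the 10 with the highest means, Glotr_127938 averaged 1028 ± 218 TPM on cedar, 1486 ± 72.6 TPM on cellulose and 971 ± 1.45 TPM on glucose (SD, n = 3 each). Glotr_80505 averaged 759 ± 71.7 TPM on cedar, 1114 ± 174 TPM on cellulose and 708 ± 74.1 TPM on glucose (SD, n = 3 each). In both, the cellulose mean was the highest. Glotr_93802 had 684, 714 and 635 TPM on cedar, 782, 692 and 784 TPM on cellulose and 519, 527 and 525 TPM on glucose, and its 3 glucose libraries lay below all the others. Glotr_125045 had 445, 537 and 523 TPM on cedar, 841, 915 and 789 TPM on cellulose and 764, 712 and 748 TPM on glucose, with the cedar libraries lowest. Glotr_49414 had 463, 364 and 442 TPM on cedar, 659.5, 701 and 608 TPM on cellulose and 923, 874 and 710.3 TPM on glucose, and its cedar libraries also lay below the glucose libraries.

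The most abundant named member was Glotr_42668, an AhpC-TSA domain protein of the alkyl hydroperoxide reductase family, whose enzymes reduce peroxides with thiols. It had 1515, 1040.5 and 1537 TPM on cedar, 1643, 1541 and 769 TPM on cellulose and 1017, 900.5 and 979.7 TPM on glucose. The lowest library was cellulose replicate 3, below all 3 glucose libraries, while the other 2 cellulose libraries lay above them, so the cellulose and glucose groups overlapped. Cedar replicate 2 was also lowest within its own group but lay above all 3 glucose libraries.

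Glotr_20380 encodes the iron-sulfur cluster assembly scaffold IscU, on which iron-sulfur clusters are built before they are handed to other proteins. It had 744, 916 and 697 TPM on cedar, 779, 551 and 799 TPM on cellulose and 728, 816 and 664 TPM on glucose. The 3 groups overlapped, and the ratio of the largest to the smallest mean, 1.11, was the second smallest among the members. It was thus both among the 10 most abundant and among the 10 with the smallest ratio.

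The proton pump of the vacuole was represented by Glotr_25690, the small V0 subunit M9.7 of the vacuolar H+-ATPase and the only gene named for this pump among the gene models with a name. It had 561, 537 and 585 TPM on cedar, 471, 536 and 657 TPM on cellulose and 360.0, 362 and 446 TPM on glucose. The 3 cedar and 3 cellulose libraries overlapped each other, and all 6 lay above the 3 glucose libraries.

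Among the genes named for the respiratory chain and ATP synthase, 3 of 13 were members, each encoding a small protein of the chain. Glotr_36687 is subunit IV (COX5b) of cytochrome c oxidase, the last complex of the chain, and had 273, 243 and 242 TPM on cedar, 375, 189 and 261 TPM on cellulose and 375, 344 and 593 TPM on glucose. Its 3 cedar libraries lay below all glucose libraries, and glucose replicate 3 was above the other 8 libraries. Glotr_28900, the mitochondrial acyl carrier protein that is also a subunit of complex I, had 316, 255 and 314 TPM on cedar, 500.003, 343 and 373 TPM on cellulose and 395, 385 and 370.5 TPM on glucose. Glotr_35185, the B16.6 subunit of complex I, had 299, 235 and 286 TPM on cedar, 377, 296 and 370.3 TPM on cellulose and 277, 254 and 235 TPM on glucose. For Glotr_28900 the cedar libraries lay below the others, and for Glotr_35185 the cellulose libraries lay above the glucose libraries and overlapped cedar. The list also holds flavin oxidoreductases and a heme lyase that matched by name and are not subunits of the chain. Outside the members, Glotr_45569, a succinate dehydrogenase membrane anchor, was abundant but not steady. It had 527, 493 and 516 TPM on cedar, 1501, 981 and 861 TPM on cellulose and 369.9, 329 and 384 TPM on glucose, and rose on cellulose relative to glucose (log2 fold change 1.59, standard error 0.246, adjusted p = 0.00216 by limma). That call was lost with all libraries brought to the same total TPM (log2 fold change 0.42, adjusted p = 0.199), with quantile normalization and without glucose replicate 1 or 2. With each of these scalings Glotr_45569 met the rule. It also met it with the same total over all gene models but Glotr_134131 and Glotr_50888.

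Most of the genes named as ribosomal proteins and not as mitochondrial fell on cedar relative to glucose, while their 1 member stayed within the factor of 2 by selection. Only gene models with a name could be placed here, so other genes of the cytosolic ribosome were not seen. Of 11 genes named as ribosomal proteins and not as mitochondrial, only Glotr_38259, the 40S protein S23 of the decoding centre, was a member, and no other reached 200 TPM on all 3 carbon sources. Glotr_38259 had 332, 220.1 and 302 TPM on cedar, 483, 474 and 409 TPM on cellulose and 527, 467 and 541 TPM on glucose. Its cedar libraries lay below the cellulose and glucose libraries, and its ratio of 1.797 was in the upper part of the range that the rule allows. On cedar relative to glucose, 7 of the 11 genes fell and none rose, against 15.7% of all 10555 gene models tested that fell and 15.2% that rose (limma, adjusted p under 0.01 and a ratio of means of at least 2 or at most 0.5). Being a member, S23 could not pass the threshold on the ratio. The median log2 fold change over the 11 genes was -2.26, beside 0.04 over all gene models tested.

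The ratio of the cedar mean to the glucose mean in the 7 genes that fell ran from 0.113 to 0.387. Glotr_6576, a fusion of ubiquitin with the 60S protein L40, had 270.4, 87.5 and 208 TPM on cedar, 1099.9, 1224 and 673 TPM on cellulose and 1778, 1562 and 1646 TPM on glucose (log2 fold change -3.28, standard error 0.39, adjusted p = 0.000331 by limma). Glotr_39358, annotated as the 60S protein L37 or L37a, had 177, 89.99 and 157 TPM on cedar, 378, 404 and 253 TPM on cellulose and 834, 809.6 and 934 TPM on glucose (log2 fold change -2.65, standard error 0.253, adjusted p = 0.000116 by limma). In both, no cedar library came near a glucose library. The other 5 were the proteins S26 (Glotr_14700), L14 (Glotr_23091), L35 (Glotr_33394), L28 (Glotr_27912) and S28 (Glotr_32099), with adjusted p up to 0.004. In all 7 genes, cedar replicate 2 was the lowest cedar library and cellulose replicate 3 the lowest cellulose library, which also held for S23. Without cedar replicate 2 the number that fell was still 7, and without glucose replicates 1, 2 and 3 in turn it was 5, 6 and 6. The remaining 3 genes, Glotr_36688, Glotr_21086 and Glotr_44755, were at 83.6 TPM or less in every group mean, carried no 40S or 60S name and were not called. On cellulose relative to glucose, only Glotr_39358 fell by this test, and none passed it without glucose replicate 1, 2 or 3, while 5 to 8 passed it with quantile normalization or either same-total scaling. Of all gene models, 10.9%, 56.5% and 34% fell with quantile normalization, the same total and the same total without Glotr_134131 and Glotr_50888. On cedar relative to cellulose only Glotr_6576 fell. Its call ended with quantile normalization (log2 fold change -1.64, adjusted p = 0.0236) and without cedar replicate 1 or 3 or cellulose replicate 1 or 2, where the log2 fold change was -2.84, -2.65, -2.41 and -2.34, whereas 5 genes fell without cellulose replicate 3. The median log2 fold change over the 11 genes was -1.51 for cedar against cellulose, beside 0.05 over all tested. With the same total it was -0.54, beside 0.91 over all tested, and with quantile normalization -0.80, beside a median near 0. The decrease on cedar relative to glucose kept its direction under the 4 other scalings of the libraries, with 7 or 8 genes called.

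**Figure D2:**
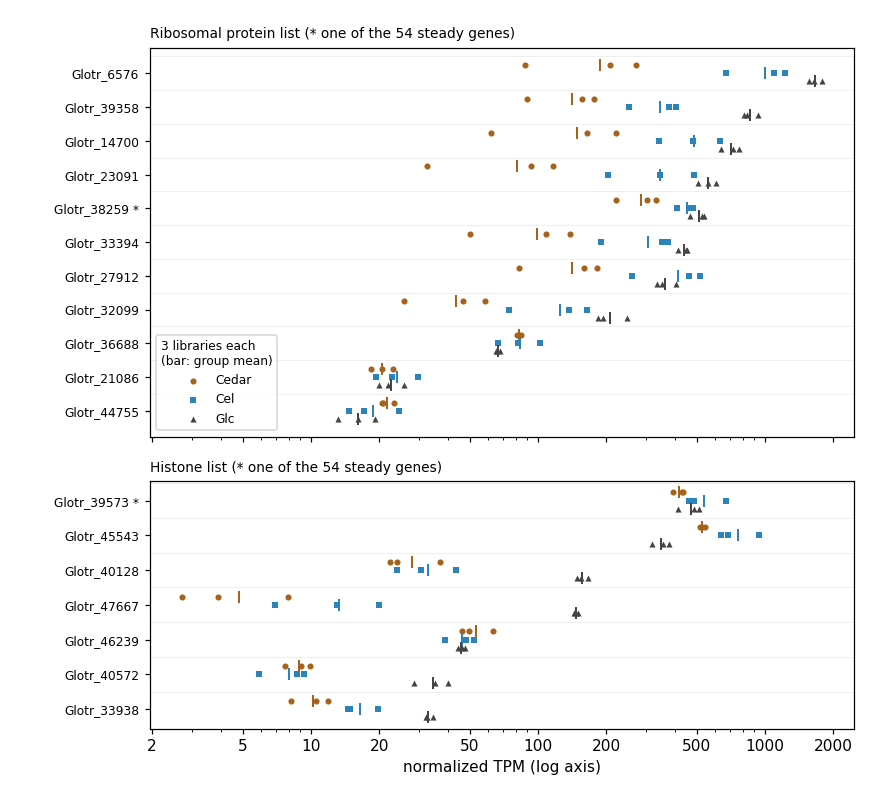
Normalized TPM (log axis) in each cedar, cellulose and glucose library for the 11 genes named as ribosomal proteins and the 7 on the histone list, each ordered by the glucose mean, with a bar at each group mean and an asterisk at the steady member. Glotr_38259 lies at 332, 220.1 and 302 TPM on cedar, against 270.4, 87.5 and 208 TPM for Glotr_6576, whose glucose libraries lie at 1778, 1562 and 1646 TPM.

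The mitochondrial ribosome had 1 member among 10 named genes. Glotr_28709, an L33-like protein of the large subunit, had 205, 197 and 215 TPM on cedar, 327, 244 and 202 TPM on cellulose and 267, 325 and 323 TPM on glucose, and its cedar libraries lay below the glucose libraries. None of the 10 fell on cedar relative to glucose and 1 rose, beside 15.7% and 15.2% of all gene models tested. The one that rose, Glotr_34963 (L22), averaged 24.6 ± 7.86 TPM on cedar and 1.246 ± 2.14 TPM on glucose (SD, n = 3 each), a level close to 0.

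Histone genes did not move together. Glotr_39573, named histone H3, was a member with 393, 430.3 and 434 TPM on cedar, 672, 488 and 461 TPM on cellulose and 514, 485 and 415 TPM on glucose, with the cedar libraries below the cellulose libraries and the glucose libraries overlapping both. The abundant histone H4 gene, Glotr_45543, was not steady, with 542, 528 and 516 TPM on cedar, 945, 686 and 643 TPM on cellulose and 377, 355 and 317 TPM on glucose. It rose on cellulose relative to glucose (log2 fold change 1.10, standard error 0.203, adjusted p = 0.00456 by limma), but with all libraries brought to the same total TPM the log2 fold change was -0.064 (adjusted p = 0.805). The call was also lost with quantile normalization and without cellulose replicate 1 or 2 or glucose replicate 1, 2 or 3. With quantile normalization or either same-total scaling Glotr_45543 met the rule, so its contrast with the H3 member depended on the scaling. A second H4 gene, Glotr_40128, fell on cedar to 22.3, 37.1 and 24.0 TPM and on cellulose to 30.6, 24.0 and 43.7 TPM, against 166, 149 and 155 TPM on glucose (log2 fold change -2.51, standard error 0.191, adjusted p = 4.07e-05 by limma for cedar). The histone 2A gene Glotr_47667 averaged 4.84 ± 2.76 TPM on cedar, 13.3 ± 6.49 TPM on cellulose and 148 ± 3.29 TPM on glucose (SD, n = 3 each). In all, 4 of the 7 genes on the histone list fell on cedar and 4 on cellulose relative to glucose, against 15.7% and 13.9% of all gene models tested, and H4 Glotr_45543 was the only one that rose, on cellulose. One of the 4 on cellulose, Glotr_33938 (H3 or H4), was at the limit, and its call ended with median-of-ratios scaling (log2 fold change -0.94) and without cellulose replicate 1 or 3 or glucose replicate 1 or 2. One entry of the list, Glotr_46239, is a subunit of the transcription repressor NC2 that shares the histone fold.

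Further named members act in metabolism, signalling and the cell wall. Glotr_14697 encodes adenylate kinase, which balances the adenine nucleotides, and had 348, 314 and 323 TPM on cedar, 196, 231 and 359 TPM on cellulose and 272, 271 and 287 TPM on glucose. The cedar and glucose libraries were each tight and did not overlap, while the cellulose libraries spanned both. Nucleoside diphosphate kinase, Glotr_35371, which uses ATP to refill the other nucleotides, was abundant but not steady. It averaged 356 ± 66.0 TPM on cedar, 1709 ± 728 TPM on cellulose and 1271 ± 156 TPM on glucose (SD, n = 3 each), and fell on cedar relative to glucose (log2 fold change -1.85, standard error 0.188, adjusted p = 0.000157 by limma).

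Glotr_36314, the gamma subunit of a heterotrimeric G protein, had 249, 256 and 243 TPM on cedar, 499.6, 409 and 447 TPM on cellulose and 268, 279.7 and 248 TPM on glucose. Cedar and glucose overlapped, and all 3 cellulose libraries were above both. Glotr_32402, a protein kinase related to checkpoint kinases, had 316, 295 and 294 TPM on cedar, 235, 309 and 356 TPM on cellulose and 256, 247 and 247 TPM on glucose, with cedar above glucose and cellulose spanning both. Glotr_44936, a small UPF0057 domain protein annotated as stress responsive, had 289, 251 and 247 TPM on cedar, 323, 323 and 324 TPM on cellulose and 458, 484 and 403 TPM on glucose. Its groups did not overlap, with cedar lowest and glucose highest.

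Glotr_47151 belongs to glycoside hydrolase family 17, whose known fungal members act on the β-1,3-glucan of the fungal wall. It had 275, 297 and 304 TPM on cedar, 552, 469.9 and 663 TPM on cellulose and 286, 266 and 292 TPM on glucose. All 3 cellulose libraries lay above the other 6, and the ratio of 1.99 was the largest among the members. Next to the limit on the ratio, Glotr_49414 (1.98) and Glotr_11089 (1.97) lay just inside, and Glotr_104432 (2.01), Glotr_43519 (2.01) and Glotr_125270 (2.02) just outside. Glotr_43519, annotated as related to the phosphoprotein endosulfine, had means of 1595 TPM on cedar, 1451 TPM on cellulose and 793 TPM on glucose. At the limit on the level, the smallest group means just inside were 203 TPM for Glotr_114178, 204 TPM for Glotr_81352 and 204 TPM for Glotr_63500. Just outside were Glotr_72928 at 199 TPM, the ADP-ribosylation factor gene Glotr_33572 at 199 TPM and Glotr_109251 at 198 TPM.

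Glotr_130843 had the smallest ratio, 1.04, yet its single libraries were 204, 247 and 197 TPM on cedar, 231, 180.5 and 242 TPM on cellulose and 261, 243 and 169.7 TPM on glucose, so replicates of a group differed by more than the group means did. After Glotr_20380 came Glotr_128271 (1.13), Glotr_127872 (1.14), Glotr_47937 (1.15), Glotr_111328 (1.16), Glotr_134582 (1.19), Glotr_32402 (1.21), Glotr_107706 (1.21) and Glotr_14697 (1.254). Of these, Glotr_127872 was the most even over single libraries, with 236, 224 and 224 TPM on cedar, 282, 235 and 260.0 TPM on cellulose and 235, 233 and 224 TPM on glucose. Its highest library was 1.26 times its lowest. These ratios are those of the deposited values. Of Glotr_130843, Glotr_20380 and the genes listed after them, only Glotr_107706 met the rule under every scaling described below. The others, Glotr_127872 among them, did not meet it with all libraries brought to the same total TPM. Over all members the ratio had a median of 1.53, and it was under 1.5 in 25 of them.

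**Figure D3:**
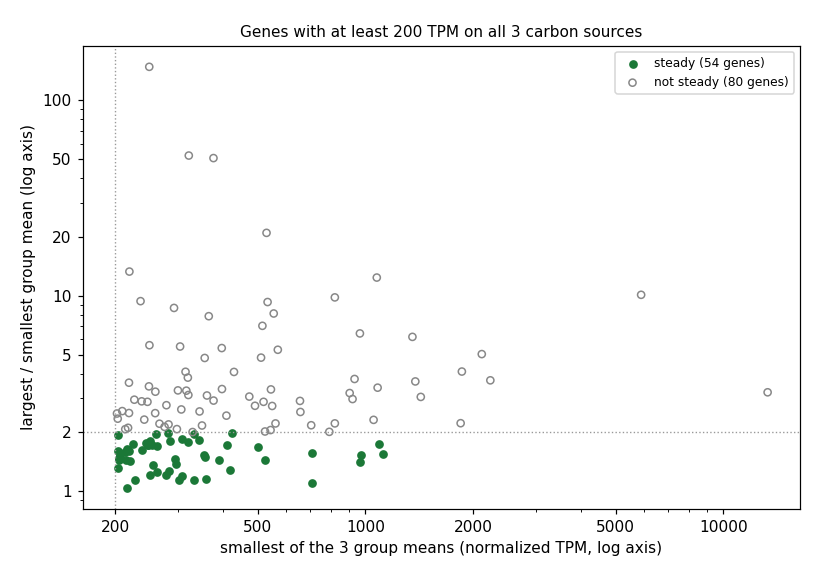
Ratio of the largest to the smallest group mean against the smallest group mean (both log axes) for the 54 steady genes (filled) and the 80 genes with at least 200 TPM on all 3 carbon sources that were not steady (open), with dotted lines at the 2 limits. The steady genes have a median ratio of 1.53 and the others of 3.14.

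A steady group mean did not always come with steady libraries. In 28 of the 54 members the highest of the 9 libraries was under 2 times the lowest, and in 5 it was at least 3 times the lowest. Glotr_117356 was the extreme, with 528, 12.9 and 363 TPM on cedar, 543, 616 and 12.6 TPM on cellulose and 271, 238 and 163 TPM on glucose. Cedar replicate 2 and cellulose replicate 3 were both near 13 TPM while the other 7 libraries were at 163 TPM or more. In Glotr_131205, 1 cellulose library stood apart, with 361, 319 and 384 TPM on cedar, 315, 279 and 1105 TPM on cellulose and 291, 271 and 359 TPM on glucose. Glotr_59416 had 521, 259 and 451 TPM on cedar, 858, 794 and 475 TPM on cellulose and 499, 433 and 558 TPM on glucose, and Glotr_11089, a hypothetical protein, had 762, 515 and 694 TPM on cedar, 624, 480.1 and 283 TPM on cellulose and 384, 328 and 287 TPM on glucose. In both, cedar replicate 2 and cellulose replicate 3 were the lowest of their groups. This held for 15 of the 54 members (27.8%), beside 23.6% of the 10607 gene models detected, meaning 0.1 TPM or more in 3 libraries or more. What sets these libraries apart was not tested. Leaving both out gave 52 members, 50 of them among the 54.

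Within a group, the coefficient of variation of the members had a median of 8.95% on cedar, 19.9% on cellulose and 7.70% on glucose. The 80 abundant genes that were not steady had medians of 14.1% on cedar, 25.6% on cellulose and 8.96% on glucose. For all gene models detected the medians were 12.3% on cedar, 19.9% on cellulose and 10.4% on glucose. In each of these sets the median was highest on cellulose.

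Below the factor of 2, the members were not level. The cellulose mean was the highest in 30 members, the glucose mean in 17 and the cedar mean in 7, whereas the cedar mean was the lowest in 33. The median ratio was 0.886 for cedar to glucose, 1.14 for cellulose to glucose and 0.779 for cedar to cellulose. All cedar libraries were below all glucose libraries in 24 members (44.4%) and above them in 8 (14.8%), beside 34.8% and 36.7% of all gene models tested. All cellulose libraries were above all glucose libraries in 16 members (29.6%) and below them in 7, beside 28.1% and 34.5%. All cedar libraries were below all cellulose libraries in 24 members (44.4%) and above them in 2 (3.7%), beside 26.1% and 31.3%. These counts come from the same contrasts that chose the members and carry no test.

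These directions depended on how the libraries were scaled. Brought to the same total TPM, the members' median ratio was 0.509 for cellulose to glucose and 1.53 for cedar to cellulose, both on the other side of 1 from the deposited values. Over all gene models tested, the median log2 difference between cellulose and glucose was then -1.09, beside -0.09 as deposited, and that between cedar and cellulose was 0.91, beside 0.05. Quantile normalization gave the members 0.756 for cellulose to glucose and 1.39 for cedar to cellulose, and turned cedar to glucose to 1.08. Under median-of-ratios scaling the values stayed close to the deposited ones, at 1.19 for cellulose to glucose and 0.743 for cedar to cellulose. Of the 54 members, 23 met the rule with the same total TPM, 42 with quantile normalization and 50 with median-of-ratios scaling. Under every scaling tried, including the same total over all gene models but Glotr_134131 and Glotr_50888, 20 of them met it. Among these 20 were histone H3 Glotr_39573, the complex I subunit Glotr_35185, the G protein subunit Glotr_36314 and, of the 10 most abundant, Glotr_127938, Glotr_80505, Glotr_125045, Glotr_93802 and Glotr_59416. Glotr_117356 and Glotr_131205, uneven between replicates as described, were also among them. IscU Glotr_20380, S23 Glotr_38259 and the peroxide reductase Glotr_42668 were not.

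**Figure D4:**
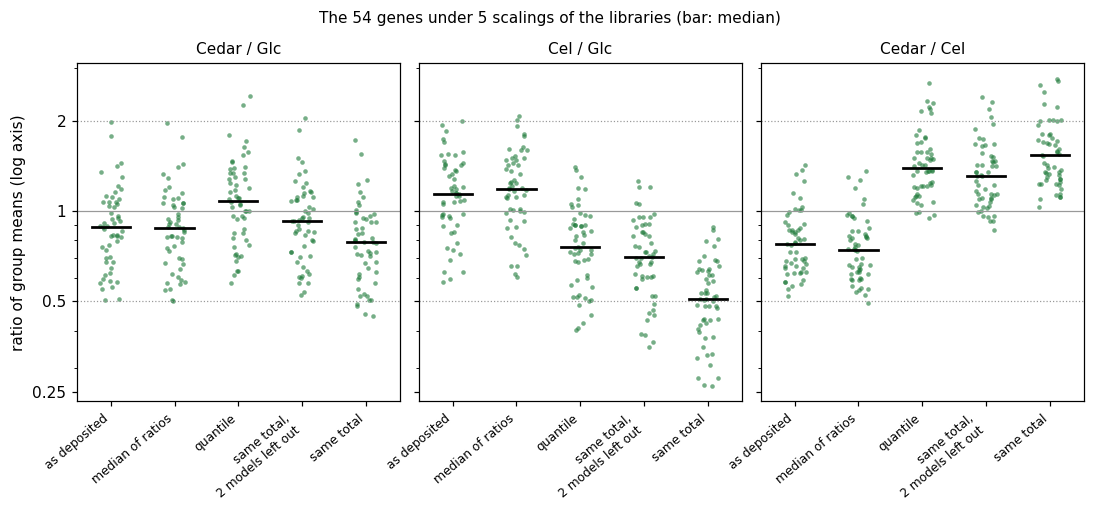
Ratios of group means (log axis) of the 54 members for cedar to glucose, cellulose to glucose and cedar to cellulose, as deposited and under 4 other scalings, with a bar at the median. The median cellulose to glucose ratio is 1.14 as deposited and 0.509 with the same total TPM, and the median cedar to cellulose ratio is 0.779 and 1.53.

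As a measure in libraries that the choice did not use, the rule was applied to 2 libraries of each group, and the remaining 3 libraries, 1 a group, were compared with each other. The deposited values had been normalized between all libraries, so the remaining libraries were not independent of the choice. The counts are a description and carry no test. With the libraries numbered 1 left out, 53 genes were chosen, and 40 of them (75.5%) had the 3 remaining libraries within a factor of 2, beside 43 of the 130 abundant genes (33.1%), a set that includes the 53. With those numbered 2 left out it was 44 of 49 (89.8%), beside 55 of 145 (37.9%). With those numbered 3 left out it was 41 of 55 (74.5%), beside 55 of 137 (40.1%). The abundant genes that were not chosen were those whose group means differed by a factor of 2 or more in the 2 libraries used. Of them, 3 of 77, 11 of 96 and 14 of 82 had the remaining libraries within a factor of 2. When the remaining libraries also had to reach 200 TPM, 38 of 53 (71.7%), 36 of 49 (73.5%) and 35 of 55 (63.6%) of the chosen genes met both parts of the rule.

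Over 15 lists of cellular machinery, 141 genes were named, and 14 of them (9.93%) had at least 200 TPM on all 3 carbon sources, beside 1.16% of all gene models. Of these 14, 8 were members. The lists could draw only on the 1734 gene models with a name, so all gene models are not a matched background for this share. Among the 1734 were 18 members and 21 of the abundant genes that were not steady. As deposited, none of the 20 genes on the chaperone list or the 19 on the ubiquitin and proteasome list was abundant on all 3. Nor was any of the 15 on the small GTPase and trafficking list or the 13 on the redox list. Glotr_33572 of the small GTPase list met the rule with quantile normalization and either same-total scaling. On the chaperone list, Glotr_38545 met it with either same-total scaling and Glotr_33266 with the same total TPM. The 36 members without a held name could not be placed on any list, so abundant genes of these families may lie among the gene models without a name. The redox list, matched by name, also missed the named member Glotr_42668, a peroxide reductase abundant on all 3. The chaperone list includes alcohol dehydrogenases that matched by a domain name. Of the 8 genes on the translation factor list, only the initiation factor eIF-5A, Glotr_41312, was abundant. It averaged 519 ± 61.6 TPM on cedar, 1489 ± 444 TPM on cellulose and 752 ± 17.8 TPM on glucose (SD, n = 3 each) and was not steady as deposited. With quantile normalization or either same-total scaling Glotr_41312 met the rule. Among the gene models with a name, 2 matched a list of usual reference genes, the cyclophilin-like Glotr_39559 and Glotr_35137. They had group means within a factor of 2 but low levels. Other usual reference genes may lie among the gene models without a name. Glotr_39559 had 17.0, 21.8 and 13.5 TPM on cedar, 16.003, 13.5 and 12.2 TPM on cellulose and 19.8, 17.7 and 18.3 TPM on glucose, and Glotr_35137 had 6.40, 6.81 and 7.09 TPM on cedar, 5.94, 7.01 and 6.66 TPM on cellulose and 7.32, 7.89 and 7.40 TPM on glucose. Both lay far below 200 TPM in every library. On the ubiquitin and proteasome list, 3 of 19 genes fell on cedar relative to glucose and 2 rose. Of all gene models tested, 15.7% fell and 15.2% rose. Among those that fell was the proteasome alpha subunit gene Glotr_33104 (log2 fold change -2.38, standard error 0.34, adjusted p = 0.000807 by limma). It had 125, 53.7 and 109 TPM on cedar, 644, 671 and 399.5 TPM on cellulose and 547, 543 and 352 TPM on glucose.

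Summed over the lists, whose 8 members could not be called, 12 of 137 genes tested rose and 28 fell on cedar relative to glucose, beside 15.2% and 15.7% of all gene models tested. The comparisons share libraries, so their counts are not independent. On cellulose relative to glucose, 13 of 134 rose and 15 fell, beside 10.4% and 13.9%, and with the same total TPM 1 rose and 72 fell, where 3.36% of all gene models rose and 56.5% fell. On cedar relative to cellulose, 10 of 137 rose and 13 fell, beside 10.7% and 5.95%, and with the same total TPM 50 rose and 5 fell, where 46.7% of all gene models rose and 141 of 10494 fell. The counts depended on single libraries. On cellulose relative to glucose the 28 genes called were 17 without glucose replicate 1 and also 17 without glucose replicate 2. The 23 called between cedar and cellulose were 8, 15 and 5 without cedar replicate 1, 2 and 3, and 13 without cellulose replicate 1. On cedar relative to glucose the lowest ratio on any list was that of the hydrophobin gene Glotr_19724, a coat protein of fungal surfaces, which averaged 376 ± 61.2 TPM on cedar, 2792 ± 1069 TPM on cellulose and 19059 ± 2599 TPM on glucose (SD, n = 3 each).

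Another hydrophobin gene, Glotr_14179, rose on cellulose relative to glucose (log2 fold change 3.50, standard error 0.444, adjusted p = 0.000944 by limma). It averaged 1190.1 ± 666 TPM on cedar, 13329.9 ± 6957 TPM on cellulose and 1076 ± 146 TPM on glucose (SD, n = 3 each), and it fell on cedar relative to cellulose, a call that ended when cedar replicate 1, 2 or 3 or cellulose replicate 1 or 2 was left out. The hydrophobin gene Glotr_18552 averaged 29.7 ± 0.52 TPM on cedar, 655 ± 398 TPM on cellulose and 114 ± 27.0 TPM on glucose (SD, n = 3 each). It fell on cedar relative to cellulose and rose on cellulose relative to glucose, and the call against glucose ended with the same total TPM, with quantile normalization and when any single library but cellulose replicate 3 was left out. Glotr_46305, an NADH oxidoreductase on the redox list, averaged 11.7 ± 5.14 TPM on cedar, 26.4 ± 23.6 TPM on cellulose and 411 ± 190.5 TPM on glucose (SD, n = 3 each). It fell on cedar and on cellulose relative to glucose, and the cellulose call ended without cellulose replicate 1 or glucose replicate 1 or 2. The alcohol dehydrogenase Glotr_45800 averaged 1.96 ± 0.11 TPM on cedar, 1.07 ± 0.30 TPM on cellulose and 74.4 ± 45.2 TPM on glucose (SD, n = 3 each) and fell on cedar and on cellulose relative to glucose. Glotr_29887, annotated as a phosphoglycerate dehydrogenase, averaged 5.50 ± 0.84 TPM on cedar, 13.9 ± 4.05 TPM on cellulose and 67.3 ± 11.9 TPM on glucose (SD, n = 3 each) and fell on cedar relative to glucose. Protein disulfide isomerase, Glotr_33266, which folds secreted proteins, averaged 320.4 ± 24.5 TPM on cedar, 664 ± 245 TPM on cellulose and 181 ± 27.0 TPM on glucose (SD, n = 3 each). Its rise on cellulose relative to glucose was no call with either same-total scaling or without glucose replicate 1 or 2. The chloroperoxidase gene Glotr_7745 averaged 114 ± 18.7 TPM on cedar, 116 ± 43.9 TPM on cellulose and 37.0 ± 4.10 TPM on glucose (SD, n = 3 each), and its rise on cellulose was no call with either same-total scaling or without glucose replicate 2 or 3. The other called genes with the largest folds, Glotr_24220, Glotr_34384, Glotr_42483, Glotr_10964, Glotr_13015, Glotr_31786 and Glotr_29973, had group means of at most 11.4 TPM.

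The rule set no limit on gene length, but the TPM that it uses is corrected for transcript length. The members' genes had a median length of 648 bp in the RefSeq annotation, from 211 to 2413 bp, and 39 of 54 (72.2%) were under 1000 bp. The abundant genes that were not steady were also short, with a median of 890.5 bp and 45 of 78 (57.7%) under 1000 bp, and the median was 1544.5 bp, with 25.7% under 1000 bp, for the 10210 gene models detected that had a length. The part of gene length in the TPM level was not tested. Neighbouring members were counted where at most 2 genes lay between them in the annotation. This gave 2 pairs, Glotr_35185 with Glotr_90835 and Glotr_81352 with Glotr_81359, each at that limit with 2 genes between them.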

How the data were processed

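RNA was sequenced from 9 cultures of G. trabeum, 3 each on cedar, cellulose and glucose. Per the study's methods and the submitters' processing notes, reads were trimmed with FaQCs and pseudoaligned to the JGI gene models with Kallisto 0.44.0, and TPM was normalized between libraries with Sleuth 0.29.0. The deposited table holds this normalized TPM as a signal value for each gene model and library, and its column sums differ. Reads shared by near-identical genes are divided by estimation, so values of such genes are uncertain.

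Members and lists were chosen with earlier results of these data known. Names came from the held part of the study's gene table. From these names 15 lists were built, which include a few unrelated proteins and can miss related ones, such as Glotr_42668. Gene lengths came from RefSeq, which matched all 54 members. List genes were tested between groups with limma 3.58.1 under R 4.3.3 (two-sided moderated test, with a variance trend) on log2(TPM + 0.5). Each fit used the libraries of 2 groups and the gene models reaching 0.1 TPM in 3 or more of these 6 libraries. P-values were adjusted by Benjamini-Hochberg over all of them. A call needed an adjusted p under 0.01 and a ratio of means of at least 2 or at most 0.5. The added 0.5 makes log2 fold changes of low genes too small. The code was tested on simulated data. Tables and plots used Python 3.11.15, pandas 2.3.3, NumPy 2.4.6 and matplotlib 3.10.9.

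The genes named are the 10 members with the highest mean of the group means, the 10 with the smallest ratio, up to 4 members of each list, the 3 genes on either side of each limit, the 5 members with the largest spread within groups, the usual reference genes, and up to 5 called list genes with the largest folds in each direction and comparison. Named outside this rule, after their values were seen, were the ribosomal and histone genes with smaller folds, Glotr_45569, Glotr_35371, Glotr_41312, Glotr_44936, Glotr_36314, Glotr_90835 and Glotr_81359. Results were recomputed with other added values, filters, scalings and limits, without the trend, with 1 fit for the 3 groups, with replicate number as a block, at a looser adjusted p, and with libraries left out. Sleuth's own test was not run here.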

Additional observations from a re-analysis of the deposited data

How the results depend on the processing

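The number of members was 54, and from 50 to 58 with 1 library left out. It was 51 with median-of-ratios scaling, 58 with group medians, 88 with the same total TPM, 85 with quantile normalization and 86 with the same total over all gene models but Glotr_134131 and Glotr_50888, a setting chosen after seeing the data, as was leaving out both cedar replicate 2 and cellulose replicate 3. It was 134 with a minimum of 100 TPM, 11 with 400 TPM, 25 with a ratio under 1.5 and 90 under 3. Of the list genes, 28 were called on cellulose against glucose (73 with the same total, 45 with the same total without the 2 gene models), and from 17 to 35 with 1 library left out. The 40 called on cedar against glucose were 36 to 43 in all settings tried. The 23 called on cedar against cellulose were 55 with the same total, 37 with the same total without the 2 gene models and 36 at an adjusted p under 0.05, and from 5 to 32 with 1 library left out. With the replicate number as a block, 28, 42 and 7 genes were called on cellulose against glucose, cedar against glucose and cedar against cellulose. Same-numbered libraries did not deviate together (correlations from -0.39 to 0.18 over 9 pairs, 2 of which were highest for their own number). The numbers are therefore used here only to name the libraries. With 3 libraries a group, whether same-numbered cultures were paired cannot be told. Histone H4 Glotr_45543 on cellulose had a log2 fold change of -0.064 with the same total TPM. Of 58 calls of single list genes, 36 passed in every setting, and 108 of the 1035 values recomputed for them no longer passed. With the block, the calls of Glotr_6576 on cedar against cellulose (adjusted p = 0.0199 by limma) and of Glotr_39358 on cellulose against glucose (adjusted p = 0.0115) were among those lost. What makes these settings differ was not tested. Within a factor of 3 in place of 2, the libraries left out gave 52 of 53, 48 of 49 and 51 of 55 genes chosen, beside 78 of 130, 87 of 145 and 96 of 137 abundant genes.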
